A study of Mus musculus with 40 samples.

Results

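The AP-1 transcription factors measured here were 8 genes, taken by name from the table of 21347 mouse genes: Fos, Fosb, Fosl1 and Fosl2 of the Fos family, Jun, Junb and Jund of the Jun family, and Atf3. All 8 were in the table and all 8 passed the filter on low values, which required 1 per M or more in at least 3 libraries and left 14701 genes for the tests. A value per M is the number of reads assigned to a gene divided by the scaled library size, in units of 1000000 reads (M). The libraries came from 4T1, a mouse mammary carcinoma cell line derived from a BALB/c tumour, grown without T cells (22 libraries) or together with T cells from the spleens of C57Bl6 mice (18 libraries). The wells were tissue culture polystyrene, either uncoated or coated at 250 µg/ml with fibronectin, vitronectin, collagen I or collagen IV. The 4T1 cells were seeded at 10000 per cm2, the T cells were added at 80000 per cm2, and every well, with or without T cells, received interleukin 2 at 30 U/mL 24 hours before harvest. There were 5 experiments and 10 groups with 3 to 5 libraries each, and the labels number each library by its experiment.

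AP-1 is a dimer of basic leucine zipper proteins that binds DNA. Jun proteins pair with each other or with Fos proteins, while Fos proteins need a Jun partner, and Atf3 can pair with Jun proteins or with itself. Fos, Fosb, Jun, Junb and Atf3 are immediate early genes, whose transcripts rise and decay quickly after growth factors, serum or stress, through MAP kinases and factors already present in the cell. Fosl1 (Fra-1) and Fosl2 (Fra-2) lack the strong activation domain of Fos, and Fosl1 is known in mammary carcinoma cells for its link to invasive, mesenchymal behaviour. Jund is the more constantly expressed Jun protein.

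The libraries held 18.95 to 239.13 M assigned reads (median 34.57 M), so that 3 reads, the count that a 0 allows, amounted to 0.0124 to 0.158 per M, which is counting error only. The epithelial markers (10 of 10 in the table, none at 0 in every library) summed to 2603 to 3742 per M in 4T1 alone. T cell markers (12 of 12 in the table) summed to 1.58 to 3.30 per M in 4T1 alone and to between 11.6 and 1848 per M in the co-cultures. The libraries of experiment 2 stood apart in the Fos genes, as described next, so results are given with and without them or within an experiment.

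Promoter sequences are shown for the 4 members whose experiment 2 libraries all lay above the other 30, and for Jun, the member that followed Fosl1 over the substrates. RefSeq promoters (assembly GRCm38.p6, the mm10 build of the deposited data) matched 7 of the 8 members. Each run is the 250 bases before the RefSeq start, 5′ to 3′ on the gene's own strand, and capitals mark matches to the motifs named below.
Fos, chr12:85473640-85473889, plus strand: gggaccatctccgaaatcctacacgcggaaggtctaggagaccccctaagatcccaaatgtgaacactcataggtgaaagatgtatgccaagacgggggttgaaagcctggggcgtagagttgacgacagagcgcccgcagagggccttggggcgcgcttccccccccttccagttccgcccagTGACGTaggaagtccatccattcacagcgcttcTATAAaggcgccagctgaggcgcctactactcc
Fosb, chr7:19310046-19310295, minus strand: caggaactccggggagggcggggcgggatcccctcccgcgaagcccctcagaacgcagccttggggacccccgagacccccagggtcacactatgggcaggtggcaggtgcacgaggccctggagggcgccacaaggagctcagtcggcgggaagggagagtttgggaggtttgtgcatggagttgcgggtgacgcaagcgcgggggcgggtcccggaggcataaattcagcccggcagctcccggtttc
Atf3, chr1:191183334-191183583, minus strand: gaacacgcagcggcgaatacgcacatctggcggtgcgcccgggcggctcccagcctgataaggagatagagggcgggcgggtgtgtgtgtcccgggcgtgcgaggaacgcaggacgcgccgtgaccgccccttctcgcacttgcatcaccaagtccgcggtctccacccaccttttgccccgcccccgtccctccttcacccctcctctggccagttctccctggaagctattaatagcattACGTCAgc
Jun, chr4:95052223-95052472, minus strand: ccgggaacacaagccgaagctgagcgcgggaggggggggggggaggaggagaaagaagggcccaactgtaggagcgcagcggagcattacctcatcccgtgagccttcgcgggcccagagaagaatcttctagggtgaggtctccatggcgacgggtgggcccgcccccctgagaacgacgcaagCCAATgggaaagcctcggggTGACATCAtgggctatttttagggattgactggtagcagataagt
Junb, chr8:84978749-84978998, minus strand: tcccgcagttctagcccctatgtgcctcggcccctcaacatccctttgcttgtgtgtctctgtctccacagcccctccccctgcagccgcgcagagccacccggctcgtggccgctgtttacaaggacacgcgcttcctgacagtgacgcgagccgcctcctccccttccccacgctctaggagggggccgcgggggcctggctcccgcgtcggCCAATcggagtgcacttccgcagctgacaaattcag

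The motifs searched on both strands were TGACTCA (the classical AP-1 site), TGACGTCA (the cAMP response element) and TGACGT (which lies within it), TGACATCA (an AP-1 and ATF site), the CArG box bound by serum response factor, TATAA and CCAAT. Among 27025 promoters of the same length, 4.43% held TGACTCA, 1.62% TGACGTCA, 6.56% TGACGT, 3.02% TGACATCA, 1.399% a CArG box, 23.5% TATAA and 34.5% CCAAT. Fos held TGACGT 66 to 61 bases and TATAA 33 to 29 bases before its start. In Atf3, TGACGT lay on the other strand, 8 to 3 bases before the start, and appears in the printed run as its reverse complement. Jun held TGACATCA 45 to 38 bases and CCAAT 65 to 61 bases before its start, and Junb held CCAAT 36 to 32 bases before its start. None of the motifs was found in the 250 bases of Fosb. The matches are descriptions of these windows only. For Atf3 the RefSeq start lies inside the gene's longer GENCODE span.

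In GENCODE M21 on GRCm38 the members lie at chr12:85473890-85477273 (Fos), chr7:19302696-19310051 (Fosb), chr19:5447547-5455946 (Fosl1), chr5:32135801-32157842 (Fosl2), chr4:95049034-95052222 (Jun), chr8:84974484-84978718 (Junb), chr8:70698949-70700616 (Jund) and chr1:191170296-191218039 (Atf3). Exons of 4 members overlap a gene on the opposite strand, namely Ccdc85b for Fosl1, Junos for Jun, Prdx2 for Junb and Gm11175 for Jund. The library kit does not mark strand, so reads from the overlapping stretches cannot be told apart.

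The level of each member was first compared per length, as the value per M divided by the kilobases of its exons, over the 17 libraries of 4T1 alone from experiments 1, 3, 4 and 5. Junb was at 96.8 ± 24.3 per M per kb (SD, n = 17) and Fosl1 at 64.6 ± 13.2, with overlapping ranges. Jund followed at 33.0 ± 7.79 and Jun at 29.2 ± 7.55, a difference smaller than their spread. Fosl2 was at 12.1 ± 1.32 and Atf3 at 6.51 ± 1.36. Fos, at 1.14 ± 0.862, and Fosb, at 1.03 ± 0.217, had the lowest levels per length and did not differ beyond their spread. Fosl1 and Fosl2 thus made up 97.3% ± 1.04 (SD, n = 17) of the per-length signal of the 4 Fos-family genes. Junb made up 60.6% ± 3.16 of that of the 3 Jun genes.

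In experiment 2 this composition was different. Fos and Fosb together made up 39.4% ± 5.70 (SD, n = 5) of the Fos-family signal per length in 4T1 alone, against 2.74% ± 1.04 (n = 17) in the other experiments. With T cells the shares were 39.2% ± 6.68 (n = 5) and 2.64% ± 1.10 (n = 13). The Junb share of the Jun family was 67.3% ± 2.80 (n = 5) against 60.6% ± 3.16 (n = 17) in 4T1 alone. In experiment 2 alone libraries, Fos itself reached 44.3 ± 10.7 per M per kb, close to Jun at 50.7 ± 5.99 and Jund at 54.3 ± 5.24, with overlapping ranges.

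Fos, the founding member of its family, had values per M in 4T1 alone in experiment 2 of 117.5 on uncoated polystyrene, 62.2 on vitronectin, 111.6 on fibronectin, 127.5 on collagen I and 102.7 on collagen IV. With T cells they were 101.0, 126.7, 97.3, 74.6 and 76.4 in the same order. Over these 10 libraries the median was 101.9 per M, and over the other 30 libraries the lowest, median and highest values were 0.803, 1.81 and 8.64 per M. Every library of experiment 2 was above every other library, and the ratio of the medians was 56.1. Of the other experiments, experiment 3 was the highest, at 3.83 to 8.64 per M in 6 libraries, and experiment 5 had a median of 1.35 per M over 10 libraries.

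Fosb, the close relative of Fos, lay at 37.3 to 100.1 per M in experiment 2 (median 70.8) and at 3.26 to 9.41 (median 6.00) elsewhere, an 11.8-fold ratio of medians. Atf3, the stress-inducible partner, lay at 45.9 to 107.3 (median 66.7) against 8.12 to 19.5 (median 12.6), a 5.28-fold ratio. Junb lay at 401.6 to 508.1 (median 462.6) against 130.1 to 309.6 (median 221.1), a 2.09-fold ratio. In all 3 genes the 10 libraries of experiment 2 lay above the other 30. Prdx2, which overlaps Junb on the other strand, had medians of 328.4 per M in experiment 2 and 295.3 elsewhere, with overlapping ranges.

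The remaining members overlapped between experiment 2 and the rest. Jun lay at 126.2 to 195.3 per M against 58.9 to 137.3, with a 1.96-fold ratio of medians. Jund lay at 67.9 to 101.3 against 32.5 to 78.2, with a ratio of 1.63. Fosl1 lay at 127.6 to 201.1 against 71.3 to 175.6, a ratio of 1.09, and Fosl2 at 95.2 to 110.5 against 82.9 to 138.5, a ratio of 0.876. Within the Fos family the ranges of Fosl1 and Fosl2 therefore overlapped between experiment 2 and the rest, while those of Fos and Fosb did not.

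**Figure D1:**
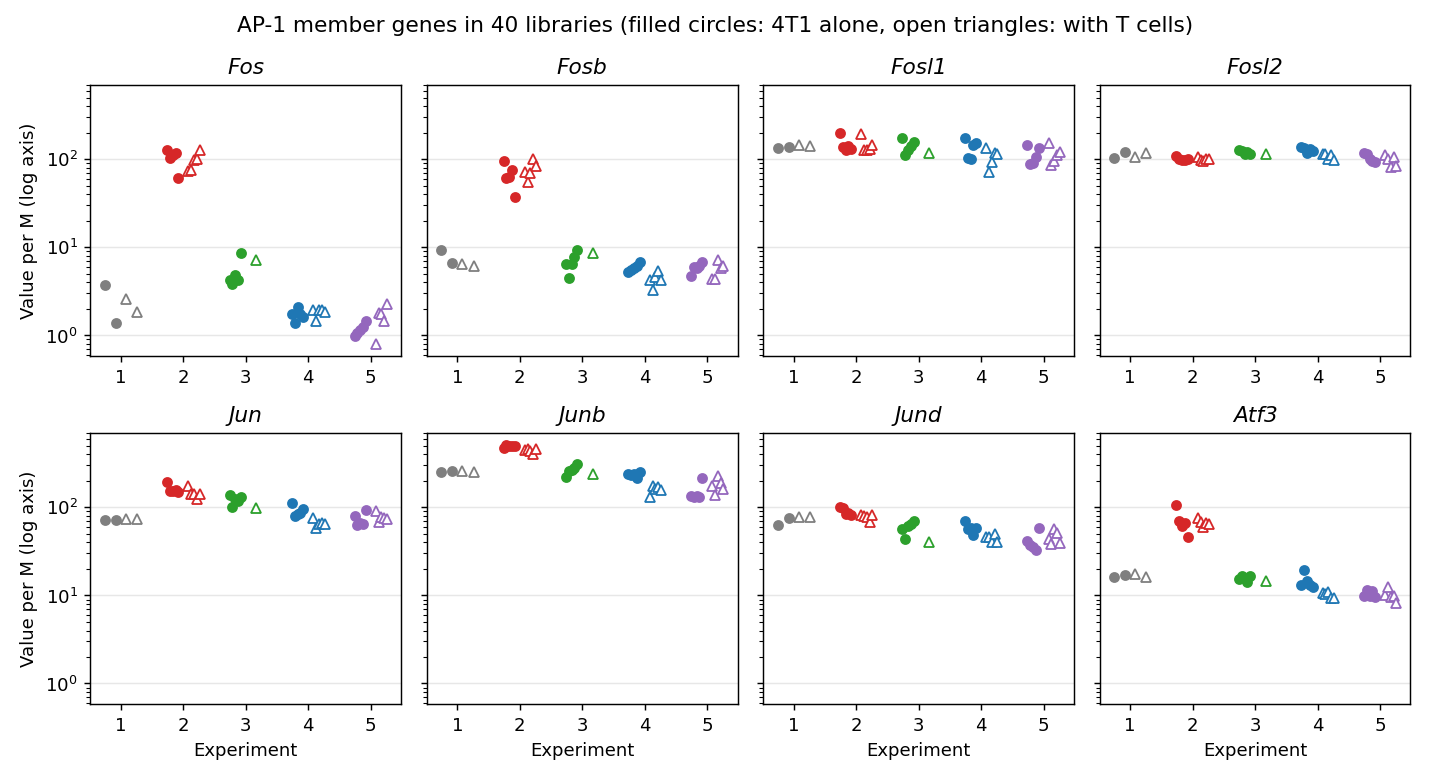
Values per M (log axis) of the 8 member genes by experiment, with 1 point per library, filled circles for 4T1 alone and open triangles for 4T1 with T cells. Fos lies between 62.2 and 127.5 per M in experiment 2 and at or below 8.64 in every other library, while Fosl1 and Fosl2 overlap across experiments.

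Set against all 14701 tested genes, by the mean log2(value + 1) in experiment 2 minus that in the others, Fos ranked 1 (4.96), Fosb 2 (3.35), Atf3 6 (2.33), Junb 30 (1.21), Jun 91 (0.88) and Jund 168 (0.70). Fosl1 ranked 1405 (0.25) and Fosl2 10385 (-0.14). All 10 libraries lay above the other 30 for 4 of the 8 members, against 0.667% of all genes tested (98 genes), and all 10 lay below for 0 members, against 1.07% (158 genes). No member was set apart in this way in experiment 1, 3, 4 or 5. Experiment 2 was singled out after its values were seen, so these ranks and counts are descriptions without a test. It held all 10 groups, its depth was 31.7 to 44.8 M reads, inside the range of the others, and the difference was present with and without T cells. What set this experiment apart was not tested.

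Lists of related genes were read in the same way. Of 32 tested immediate early genes other than the members, 15 had all experiment 2 libraries above the others, and their median difference was 0.77 on the log2 scale, against -0.03 over all genes. Egr1, a zinc finger immediate early factor, had medians of 171.4 per M in experiment 2 and 14.2 elsewhere. Dusp1, a phosphatase that switches off MAP kinases, had medians of 91.1 and 10.8. Csrnp1, a nuclear factor induced by signalling, had 77.3 and 17.2. Of the 20 tested genes described as AP-1 targets, 6 were set apart upward (Csf2, Ptgs2, Hmox1, Hbegf, Vegfa and Lif), and the list's median difference was 0.42. Ptgs2, the inducible prostaglandin synthase, had medians of 404.8 and 205.2 per M, and Hbegf, an EGF receptor ligand, had 190.9 and 123.6.

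Of 13 tested genes of the integrated stress response, 2 were set apart upward: Ppp1r15a, which restarts translation, had medians of 83.9 and 15.2 per M, and Herpud1, of endoplasmic reticulum protein quality control, had 46.1 and 36.2. Of 16 bZIP partners, 2 were set apart upward, the small Maf proteins Mafk (57.1 against 33.6) and Maff (39.8 against 25.3). None of the 8 heat shock genes was set apart. Their median difference was 0.03, with the inducible chaperone genes Hspa1a at 0.62 and Hspa1b at 0.49 the highest, and these near-identical copies can share reads. Of 20 MAP kinases, ternary complex factors and genes of AP-1 turnover, 0 were set apart upward and 1 downward (Fbxw7, which marks Jun for degradation).

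**Figure D2:**
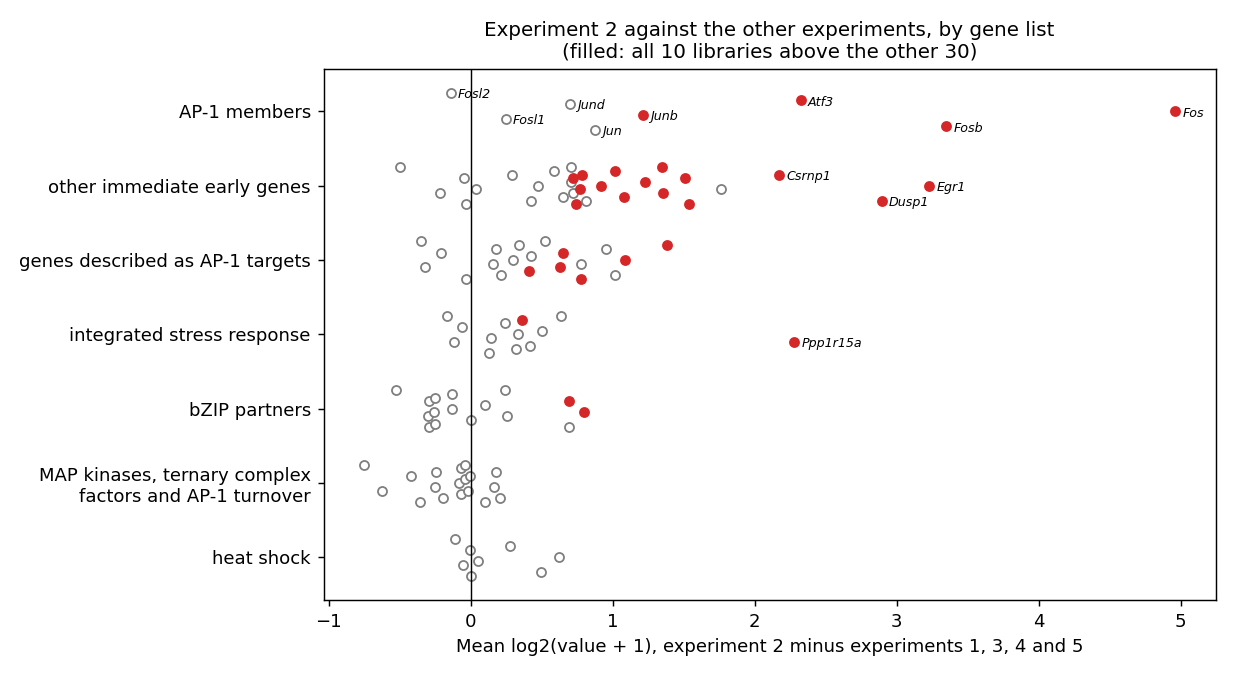
Mean log2(value + 1) in the 10 libraries of experiment 2 minus that in the other 30 libraries, with 1 point per gene in 7 gene lists and filled points for genes whose experiment 2 libraries all lie above the others. Fos (4.96), Fosb (3.35) and Egr1 (3.23) lie farthest to the right, and the heat shock genes have a median of 0.03 and reach 0.62.

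The share of each member's variance that lay between experiments was then computed. In 4T1 alone (22 libraries, log2 scale) it was 98.1% for Fos, 95.8% for Fosb, 94.9% for Atf3, 93.4% for Junb, 88.0% for Jun, 79.2% for Jund and 65.2% for Fosl2. For Fosl1 it was 24.1%, and 61.8% lay between substrates. Without experiment 2 (17 libraries) the share between experiments was still 82.1% for Fos but 28.7% for Fosb. In these libraries 68.5% of the Fosl1 variance and 44.4% of the Fosb variance lay between substrates. In the 18 co-cultures 45.6% of the variance of Fosl1 and 47.4% of that of Fosl2 lay between substrates. In the 13 co-cultures outside experiment 2 these shares were 50.4% for Fosl1 and 60.3% for Fosl2. These shares are descriptions, and with unequal groups they need not add up to the whole.

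Fosl1 was the member with the largest share of its variance between substrates in 4T1 alone, and it is described first. In 4T1 alone it had 201.1, 175.6, 175.0 and 145.9 per M on collagen I in experiments 2 to 5. On uncoated polystyrene it had 137.9, 143.2, 142.4, 143.9 and 107.9 in experiments 1 to 5, and on collagen IV it had 136.7, 113.3, 103.6 and 89.3 in experiments 2 to 5. Within each of the 4 experiments, collagen I was above uncoated and collagen IV was below it.

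On fibronectin the Fosl1 values were 134.0, 127.6, 128.4, 100.2 and 91.6 per M in experiments 1 to 5, below uncoated in 5 of 5 experiments. On vitronectin they were 132.8, 157.3, 152.6 and 134.5 in experiments 2 to 5, above uncoated in 3 of 4. The order of the mean differences from uncoated within an experiment (log2 scale) was collagen I (0.38 ± 0.10, SD, n = 4), vitronectin (0.11 ± 0.17, n = 4), fibronectin (-0.22 ± 0.18, n = 5) and collagen IV (-0.28 ± 0.17, n = 4). Fibronectin and collagen IV did not differ beyond their spread.

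With T cells the same pattern was seen in fewer libraries. Fosl1 had 192.3, 133.9 and 155.1 per M on collagen I in experiments 2, 4 and 5, against 130.8, 116.9 and 112.3 on uncoated polystyrene and 127.8, 71.3 and 86.8 on collagen IV in those experiments. Collagen I was the highest of the 5 substrates for Fosl1 in 7 of 7 sets, counting each experiment with and without T cells where all 5 were measured, and collagen IV was the lowest in 5 of 7. Collagen I exceeded collagen IV 1.47 to 1.69-fold in 4T1 alone (4 pairs) and 1.51 to 1.88-fold with T cells (3 pairs).

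Limma on log2(value + 1) with the 10 groups and no term for the experiment, with Benjamini-Hochberg adjustment over all genes, called 0 of 8 members in the F test over substrates in 4T1 alone (0.252% of all genes were called) and 0 of 8 with T cells (0.129%). At an unadjusted p under 0.05 it had 1 member in each, Fosl1, and edgeR without the block also called 0 in each. The share of all genes at that unadjusted cut is not given here or below, so counts at it do not set the members apart. With the experiment as a block, limma called 1 of 8 members in 4T1 alone, against 2.69% of all genes, and 1 of 8 with T cells, against 1.60%. Both were Fosl1, with an adjusted p of 0.000372 in 4T1 alone (0.266 without the block) and 0.00269 with T cells (0.980 without the block). At an unadjusted p under 0.05 the blocked fit had 3 members in each, Fosl1, Fosl2 and Jun, where Fosl2 had limma adjusted p-values of 0.118 in 4T1 alone and 0.117 with T cells, and Jun 0.0921 and 0.487. When the libraries of 4T1 alone were fitted by themselves with the block, all 3 passed, against 9.82% of all genes. Without experiment 5 the limma adjusted p-values of Fosl1 with the block rose to 0.0790 in 4T1 alone and 0.412 with T cells, so both calls were lost.

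For single coats, limma without the block called 0 of 32 member comparisons in 4T1 alone and 0 of 32 with T cells, as did edgeR. The shares of all genes called, in the order collagen I, collagen IV, fibronectin and vitronectin, were 0.0952%, 0.00680%, 0% and 0% in 4T1 alone and 0.00680%, 0.0136%, 0% and 0% with T cells. At an unadjusted p under 0.05 there was 1 of 32 in each, again Fosl1, and with the block 5 of 32 in each, of Fosl1, Fosl2 and Jun. For this unadjusted cut no share of all genes is given. With the block, limma called Fosl1 higher on collagen I than on uncoated polystyrene in 4T1 alone, by 0.41 ± 0.10 (log2, SE, adjusted p = 0.0401), where 0.469% of all genes were called higher. The same difference without the block was 0.37 ± 0.16 with an adjusted p of 1.00. Left out 1 at a time, experiments 1, 2, 3, 4 and 5 gave limma adjusted p-values with the block of 0.138, 0.325, 0.132, 0.00245 and 0.443, with differences of 0.38 to 0.45. The call was kept without experiment 4 and lost without any 1 of the others. The library names carry a tag (R2, R3 or none) whose meaning the labels do not give. In 4T1 alone the collagen I and uncoated libraries carry the same tag only in experiment 4 (R3). In experiments 2, 3 and 5 their tags differ. Collagen IV libraries of 4T1 alone differ in tag from uncoated in the same experiments, fibronectin libraries in experiments 2 and 5, and vitronectin libraries in experiment 2. With T cells, every coat differs in tag from uncoated in experiment 4, and fibronectin and vitronectin also in experiment 5. In all these cases the tag and the coat cannot be told apart for any member.

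The Fosl1 difference of collagen I from uncoated polystyrene with T cells was 0.41 ± 0.11 with the block and did not pass limma's adjusted threshold (adjusted p = 0.160, 95% interval 0.18 to 0.64 before adjustment). The collagen IV differences with the block were -0.25 ± 0.10 in 4T1 alone (adjusted p = 0.576) and -0.32 ± 0.11 with T cells (adjusted p = 0.291). Ccdc85b, whose exons overlap Fosl1 on the other strand, differed by 0.35 ± 0.36 (SD, n = 4) between collagen I and uncoated in 4T1 alone, higher in 3 of 4 experiments, and its part in the Fosl1 reads was not tested.

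**Figure D3:**
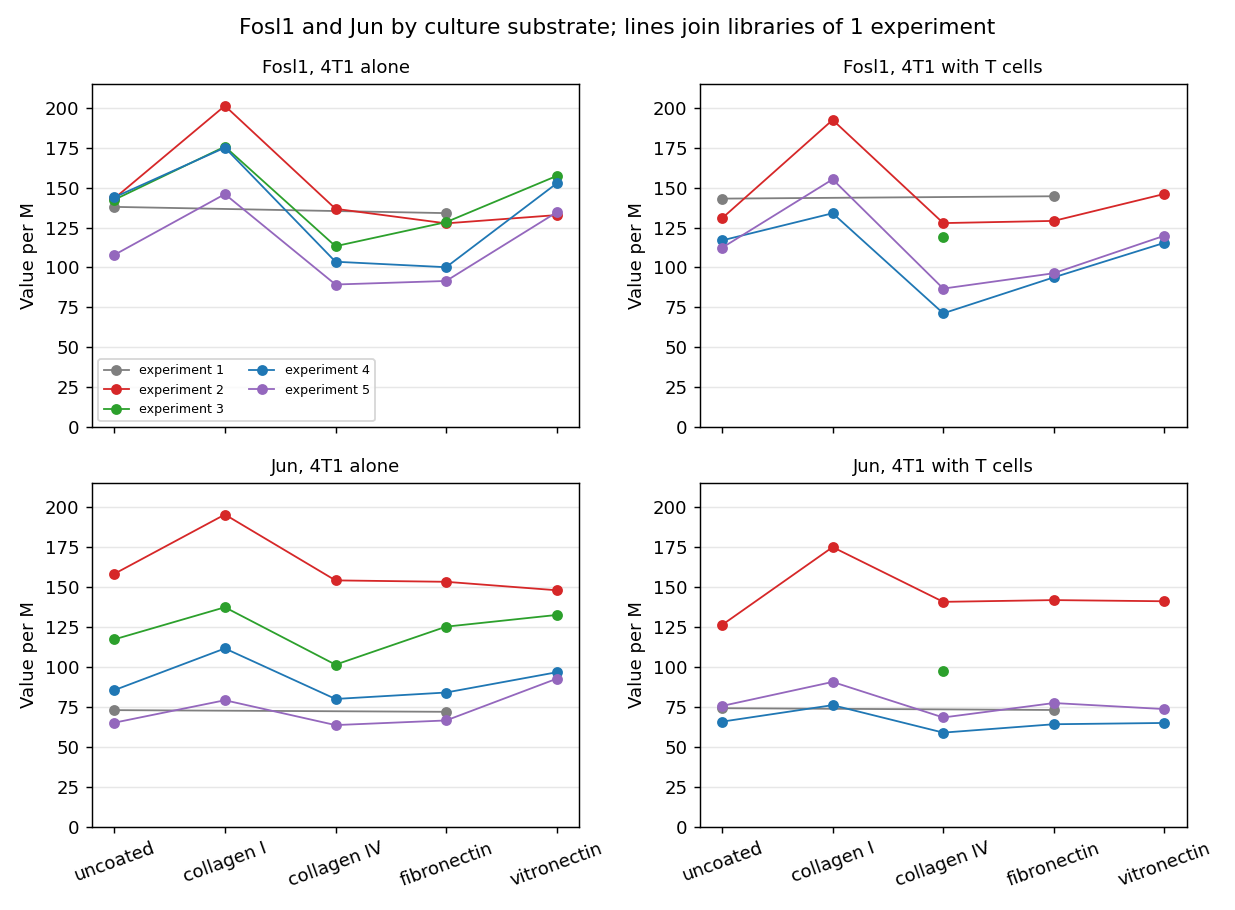
Fosl1 (top) and Jun (bottom) in values per M on the 5 substrates, in 4T1 alone (left) and with T cells (right), with lines that join libraries of 1 experiment. Fosl1 is highest on collagen I in every experiment with all substrates, from 133.9 to 201.1 per M, and Jun differs more between experiments than between substrates.

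Jun, a dimer partner of the Fos proteins, had 195.3, 137.3, 111.5 and 79.1 per M on collagen I in experiments 2 to 5 in 4T1 alone, against 158.2, 117.2, 85.4 and 65.1 on uncoated polystyrene. With T cells it had 174.9, 76.1 and 90.6 against 126.2, 65.7 and 75.6 in experiments 2, 4 and 5. Collagen I was above uncoated in 4 of 4 pairs and 3 of 3 pairs, and was the highest substrate in 6 of 7 sets, the exception being vitronectin in experiment 5 of 4T1 alone. The difference in 4T1 alone was 0.39 ± 0.33 without the block and 0.31 ± 0.10 with it, and neither passed the adjusted threshold (limma adjusted p = 1.00 and 0.213). It passed only when the libraries of 4T1 alone were fitted by themselves with the block (0.29, limma adjusted p = 0.0401), a fit whose share of all genes called is not given. Junos, which overlaps Jun on the other strand, differed by -0.01 ± 0.26 (SD, n = 4).

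The other members were not called on any coat in the fits with all 40 libraries. Fosl2 was above uncoated on collagen I in 4 of 4 pairs in 4T1 alone (0.16 ± 0.12, SD) and 3 of 3 with T cells (0.05 ± 0.04). Fosb was below uncoated on collagen IV in 4 of 4 pairs (-0.28 ± 0.29) and 3 of 3 pairs (-0.59 ± 0.26), and below it on collagen I in 3 of 3 pairs with T cells (-0.38 ± 0.11). Junb and Jund differed most on vitronectin in 4T1 alone, by 0.28 ± 0.31 and 0.28 ± 0.39, with experiment 5 the highest pair in both (0.74 and 0.82). Atf3 was above uncoated on collagen IV in 4 of 4 pairs (0.22 ± 0.22) and 3 of 3 pairs (0.16 ± 0.14). On log2(value + 1), Fos had no coat with a mean above 0.30 in either direction. Its single pairs ran from -0.91 (vitronectin, experiment 2) to 1.00 (fibronectin, experiment 1), both in 4T1 alone. The added 1 shrinks differences at the low Fos values outside experiment 2, so this bound belongs to that scale. As plain ratios of coat to uncoated, the same 2 pairs were 0.529 and 2.71.

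**Figure D4:**
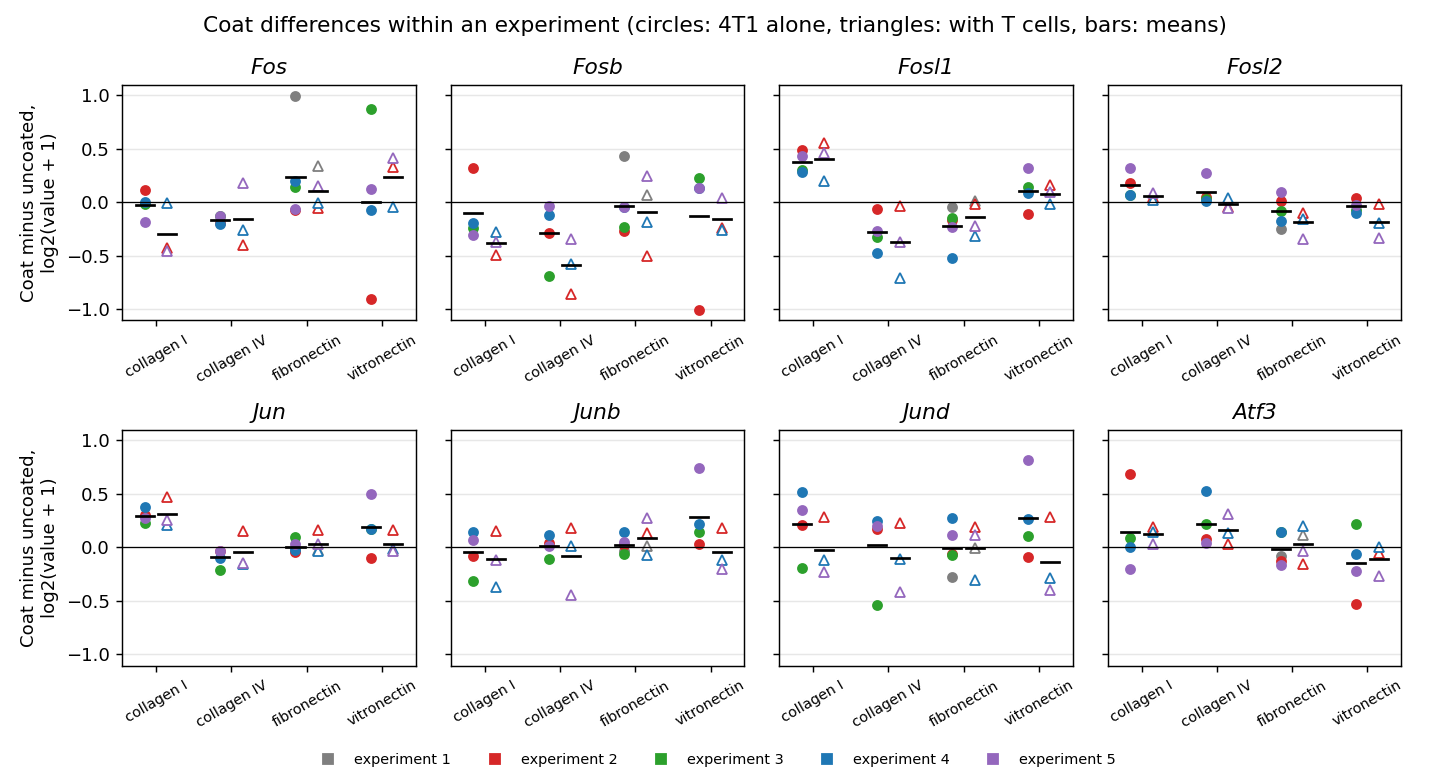
Differences of each coat from uncoated polystyrene within an experiment, as log2(value + 1), for the 8 members, with circles for 4T1 alone, triangles for co-cultures, colours for experiments and bars for means. For Fosl1 all 7 collagen I points lie above 0 and all 7 collagen IV points lie below it, while for Fos single pairs reach -0.91 and 1.00.

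The lists were counted on collagen I as well. In 4T1 alone, limma without the block called 0 of 20 tested AP-1 targets against uncoated polystyrene, where 0.0952% of all genes were called. With the block Plaur, the urokinase receptor, was higher by 0.46 ± 0.07 (SE, limma adjusted p = 0.00116 with the block). The list's median difference with the block was -0.03, against 0.01 over all genes. With the block, 0 of 16 bZIP partners, 0 of 20 kinase and turnover genes, 0 of 32 immediate early genes, 0 of 13 stress response genes and 0 of 8 heat shock genes were called on collagen I. In that fit 0.469% of all genes were called higher. At such a share a count of 0 is usual for lists this short, so these counts do not set the lists apart. In the F test over substrates with the block, 6 of 20 AP-1 targets passed, among them Plaur, Spp1 and Mmp3, where 2.69% of all genes did, against 1 of 20 without it (Mmp3), where 0.252% did. Of the other lists, 4 of 32 immediate early genes (Ctgf, Plk2, Klf6 and Gadd45b), 1 of 13 stress response genes (Asns) and none of the bZIP partners, kinase and turnover genes or heat shock genes passed with the block, and none without it.

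Adding T cells was compared over all substrates. Fosl2 was the only member that limma called without the block: it fell by 0.14 ± 0.05 on the log2 scale (SE, limma adjusted p = 0.0323), and turned to +0.09 (adjusted p = 0.436) when libraries were scaled to their epithelial markers. The epithelial markers themselves fell in this comparison, with 4 of 10 called lower by limma and a median difference of -0.23. Scaling to them raised the median difference of all tested genes from -0.01 to 0.20, and Fosl2 lay below that median. The call on 1 of 8 members, which was lower, stood against 12.2% of all genes called lower. In 4T1 alone Fosl2 had 122.8, 97.5, 121.1, 132.3 and 95.7 per M on uncoated polystyrene in experiments 1 to 5, and with T cells it had 118.6, 101.8, 112.3 and 105.5 in experiments 1, 2, 4 and 5, so the groups overlapped. Over all substrates its lowest, median and highest values were 93.9, 115.6 and 138.5 per M in the 22 libraries of 4T1 alone and 82.9, 103.7 and 118.6 in the 18 co-cultures. Over the 18 pairs on the same substrate in the same experiment, Fosl2 was lower with T cells in 14. In experiment 4 it was lower in 5 of 5 pairs, with a mean difference of -0.25 ± 0.05 (SD), and in experiment 2 in 3 of 5 (-0.01 ± 0.05). The library names in the labels carry a tag, R2, R3 or none, whose meaning is not given. R3 is the tag of the 5 wells without T cells in experiment 4 and of no co-culture there (1 has R2, 4 are untagged), so in that experiment the tag and the T cells cannot be told apart. In experiment 2 the 5 co-cultures carry R2, as does 1 library of 4T1 alone, and the other 4 carry none.

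With the experiment as a block limma called 2 of 8 members lower with T cells, against 23.4% of all genes: Fosl2 (-0.12 ± 0.03, adjusted p = 0.00308) and Jun (-0.17 ± 0.05, adjusted p = 0.00783, against -0.22 ± 0.16 and 0.297 without the block). Jun turned to +0.01 when scaled to epithelial markers, below the median of 0.20 over all genes under that scaling. Its lowest, median and highest values were 63.6, 99.0 and 195.3 per M in 4T1 alone and 58.9, 75.8 and 174.9 with T cells, which overlap. Jun was lower in 12 of 18 pairs, 5 of them in experiment 4 (-0.46 ± 0.09, SD) and 5 in experiment 2 (-0.16 ± 0.10), and higher in 4 of 5 pairs of experiment 5 (0.08 ± 0.23). Without experiment 4 the blocked differences were -0.06 for Fosl2 (limma adjusted p = 0.213) and -0.05 for Jun (0.488). Without the block, Fosl2 lost its limma call without experiment 3 (adjusted p = 0.117), experiment 4 (0.330) or experiment 5 (0.0653). With experiment 2 left out, limma called Jun (-0.31, adjusted p = 0.0350) and Atf3 (-0.29, adjusted p = 0.0454) lower beside Fosl2. The share of all genes called lower in that fit is not given, so these calls do not set the members apart.

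T cell RNA differed between the same experiments. The summed T cell markers in the co-cultures were 589.8 to 1848 per M in experiment 4, 119.5 to 186.7 in experiment 1, 20.5 to 33.8 in experiment 2, 14.2 in experiment 3 and 11.6 to 24.0 in experiment 5. The epithelial markers in experiment 4 summed to 1592 to 2462 per M with T cells and to 2747 to 3289 without. The wells were harvested whole, so fewer carcinoma cells and less RNA per cell cannot be told apart for any member. In experiment 4 the mean differences of Junb (-0.57 ± 0.20), Atf3 (-0.47 ± 0.21), Fosb (-0.38 ± 0.20), Jund (-0.38 ± 0.26) and Fosl1 (-0.34 ± 0.16) were also negative, and that of Fos was 0.06 ± 0.09 (SD, n = 5 pairs each). The part of T cell RNA in these values was not tested.

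For the other members the blocked differences over all substrates did not pass the threshold. Atf3 came nearest, at -0.16 ± 0.07 (limma adjusted p = 0.0525, 95% interval -0.31 to -0.02 before adjustment), and Fosl1 was at -0.09 ± 0.05 (adjusted p = 0.132, interval -0.19 to 0.01). On single substrates limma and edgeR, with or without the block, called 0 of 40 member comparisons (0% of all genes in limma without the block), with 0 at an unadjusted p under 0.05 without the block and 6 with it. No share of all genes is given beside these unadjusted counts. The T cell effect on a coat minus that on uncoated polystyrene was called for 0 of 32 (0% of all genes), also by edgeR, with 0 at an unadjusted p under 0.05.

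**Figure D5:**
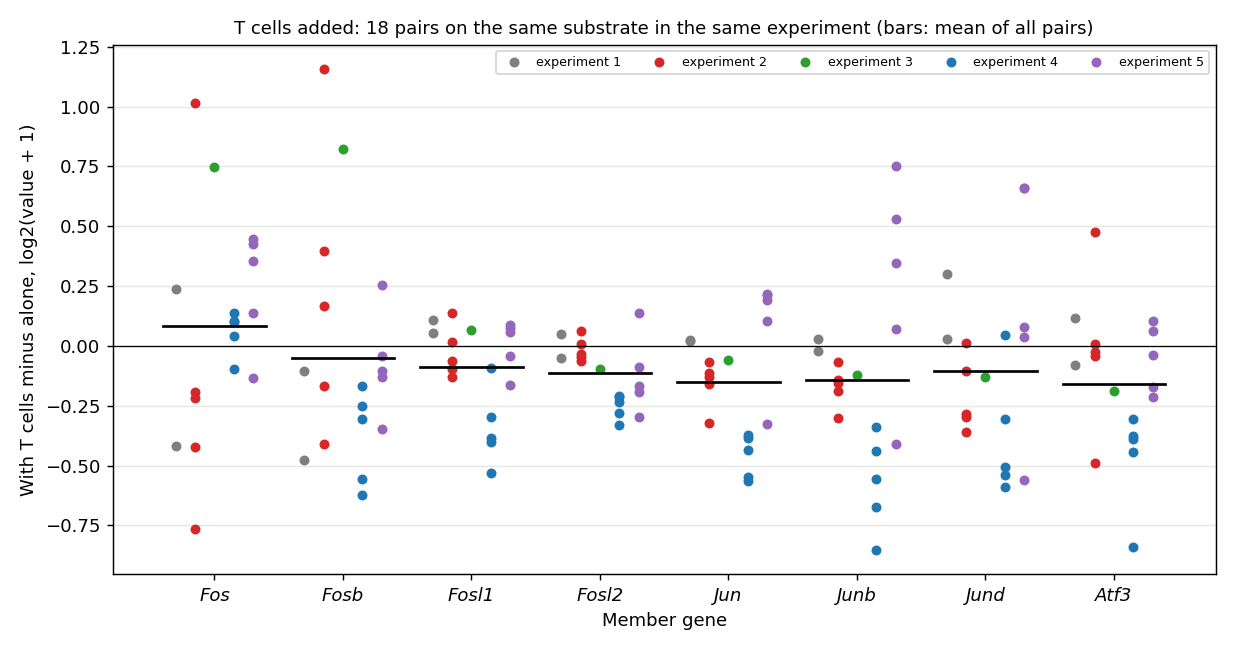
Differences between 4T1 with T cells and 4T1 alone, as log2(value + 1), for 18 pairs on the same substrate in the same experiment, with 1 point per pair, colours for experiments and bars for the mean of all pairs. In experiment 4 all 5 pairs lie below 0 for Fosb, Fosl1, Fosl2, Jun, Junb and Atf3, while Fos pairs range from -0.77 to 1.01.

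The pathway lists with T cells added, in limma without the block, were as follows. Of 16 bZIP partners, 6 rose and 3 fell, with Bach2 (1.63 ± 0.40, SE, adjusted p = 0.00859), a repressor of lymphocyte differentiation, Batf (0.59 ± 0.18, adjusted p = 0.0225), an AP-1 partner in lymphocytes, and Maf (0.51 ± 0.15, adjusted p = 0.0188) higher. Jdp2, a repressor that pairs with Jun, was lower, at -0.19 ± 0.07 (limma adjusted p = 0.0381), and turned to +0.03 when scaled to epithelial markers. Of 32 other immediate early genes, 6 rose and 1 fell, among them Klf2 (2.11 ± 0.47, adjusted p = 0.00492), a factor of resting T cells, Btg2 (1.18 ± 0.36, adjusted p = 0.0212), an antiproliferative gene, and Dusp2 (0.83 ± 0.29, adjusted p = 0.0362), a phosphatase of MAP kinases in lymphocytes. Gadd45b, a stress sensor, had -0.28 ± 0.09 (adjusted p = 0.0266), or -0.06 when scaled to epithelial markers. T cell markers rose in the same libraries (Trbc2 by 3.73 ± 0.54). B cell markers summed to 0.913 to 139.0 per M in the co-cultures, highest in experiment 4, and to 0 to 0.236 in 4T1 alone. Reads from the different cell types cannot be told apart.

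Of 20 MAP kinase and turnover genes, 2 rose and 1 fell: Rps6ka3 (0.32 ± 0.09, limma adjusted p = 0.0148) and Mapk14 (0.09 ± 0.03, adjusted p = 0.0321) were higher, and Map2k2 (-0.15 ± 0.06, adjusted p = 0.0444) was lower. Of 20 AP-1 targets, 0 rose and 2 fell, Timp1 (-0.17 ± 0.06, adjusted p = 0.0383) and the cyclin Ccnd1 (-0.14 ± 0.04, adjusted p = 0.0198). In the stress response list 1 of 13 fell, Phgdh of serine synthesis (-0.21 ± 0.05, adjusted p = 0.00859), and of 8 heat shock genes 2 fell, Hspe1 (-0.16 ± 0.04, adjusted p = 0.0123) and Hspa8 (-0.11 ± 0.04, adjusted p = 0.0270). With the block the counts were 9 higher and 5 lower of 16 bZIP partners, 6 and 4 of 20 kinase and turnover genes, 7 and 8 of 32 immediate early genes, 0 and 8 of 20 AP-1 targets, 0 and 7 of 13 stress response genes and 0 and 2 of 8 heat shock genes. Over all genes the blocked fit called 22.4% higher and 23.4% lower, and the fit without the block 13.1% and 12.2%. The median differences without the block were 0.13, 0.04, 0.04, -0.13, -0.08 and -0.09 in the same order, -0.12 for the 8 members and -0.01 for all tested genes. When scaled to epithelial markers Map2k2, Timp1, Ccnd1, Phgdh, Hspe1 and Hspa8 were all above 0, at 0.07, 0.05, 0.09, 0.01, 0.07 and 0.12, and Hspa8 was at 0.02 after quantile normalisation. Under that scaling the median difference of all tested genes was 0.20, which left 5436 genes called higher and 3 lower, against 1922 higher and 1788 lower as deposited.

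Genes with the most similar pattern were sought over the 22 libraries of 4T1 alone, among 9475 genes with a mean of 10 per M or more, by Pearson's r of log2(value + 1). These libraries share experiments and substrates, so r is a description. For Fos they were Dusp1 (0.989), Nfkbiz (0.986) and Sgk1 (0.983), and for Fosb they were Hes1 (0.984), Fos (0.973) and Socs3 (0.968). Atf3 was nearest to Csrnp1 (0.977), Sgk1 (0.967) and Fos (0.963). These values carry the difference of experiment 2: without it (17 libraries) Fos and Dusp1 had 0.919, Fos and Fosb 0.559, and Fos and Atf3 0.577.

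Fosl1 was nearest to Plaur (0.910), Clip4 (0.910) and Ppp1r14b (0.905), and these 3 kept 0.934, 0.928 and 0.929 after the mean of each experiment was removed, and 0.958, 0.836 and 0.824 over the 18 co-cultures. Jun was nearest to Lif (0.931), Ier2 (0.920) and Egr1 (0.918), and Junb to Zfp503 (0.964), Maff (0.959) and Dusp4 (0.958). Within experiments these were lower, at 0.587, 0.837 and 0.674 for Jun and 0.705, 0.458 and 0.436 for Junb. Over the co-cultures, which include experiment 2, they were 0.892, 0.945 and 0.945 for Jun and 0.971, 0.949 and 0.948 for Junb. Jund was nearest to Ier5 (0.947), Zfp503 (0.941) and Irf2bp2 (0.940). These had 0.799, 0.783 and 0.821 within experiments and 0.603, 0.855 and 0.866 over the co-cultures. For Fosl2 the values were lower, with Spata2 at 0.856, Tnrc6c at 0.840 and Zfp646 at 0.839. These had 0.673, 0.659 and 0.679 within experiments and 0.541, 0.474 and 0.414 over the co-cultures. Among the members themselves, Fosl1 and Jun had 0.874 and Fos and Fosb 0.814 within experiments, Jun and Jund had 0.779, and Fos and Jun had 0.330.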

How the data were processed

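RNA was sequenced as single-end reads from unstranded libraries of 22 wells of 4T1 alone and 18 wells with T cells. Per the submitters' processing notes, STAR 2.6, featureCounts and edgeR 3.31.7 were used with build mm10. The authors' deposited table holds a signal per gene that gave whole reads for 100% of values (tolerance 0.01) once divided by the step of each library. Depth was 18.95 to 239.13 M reads (1 M is 1000000). Of the lines, 1 without a number and 1 duplicate were left out.

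Genes at 1 per M or more in at least 3 libraries were fitted with limma 3.58.1 (trend) on log2(value + 1) in R 4.3.3, as 10 group means over 40 libraries, with Benjamini-Hochberg adjustment over all genes and a threshold of 0.05. The count test was edgeR 4.0.16 (quasi-likelihood) on the recovered reads; it called 1 member with T cells added over all substrates and 0 in the other comparisons, and with the experiment as a block it called 2 with T cells added and Fosl1 over substrates. Of all genes with T cells added it called 3950 (limma 3710). Replicate numbers are the labels' experiments and so pair the libraries: deviations from group means correlated with a median of 0.48 over 156 pairs of one experiment and -0.13 over 562 others. Libraries of one group differed by more than counting noise (chi-square per degree of freedom at least 7.28 in 62 pairs), so none was taken for a copy. Per the labels, the experiments are biological replicates.

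Named genes were all 8 members, up to 4 called genes of each list by size of difference, with both directions where called, and the 3 most similar genes of each member. The members, lists and tests were chosen with earlier results of these data known. Alternatives were the block, another pseudocount, filters, scalings, edgeR, subsets and leaving out libraries or experiments, the last also with the block, which was added after seeing the data. A result on 1 listed gene is not reported here.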

Additional observations from a re-analysis of the deposited data

Results flagged for a closer look

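In 26 of 64 sets of libraries (1 member in 1 group of 4 to 5 libraries) the highest or lowest library stood far from the rest by Dixon's criterion. Chance meets this criterion in about 1 of 20 sets of independent, normally distributed values. The 64 sets share libraries and experiments, so their count is a description and cannot be held against that rate. In 25 of the 26 sets the library apart was the highest and came from experiment 2. For Fos these were, in values per M, 117.5 on uncoated, 62.2 on vitronectin, 111.6 on fibronectin, 127.5 on collagen I, 102.7 on collagen IV, 76.4 on collagen IV with T cells, 97.3 on fibronectin with T cells and 101.0 on uncoated with T cells. For Fosb these were, in values per M, 75.9 on uncoated, 37.3 on vitronectin, 62.7 on fibronectin, 94.7 on collagen I, 61.8 on collagen IV, 54.9 on collagen IV with T cells, 70.6 on fibronectin with T cells and 100.1 on uncoated with T cells. For Atf3 these were, in values per M, 66.5 on uncoated, 60.8 on fibronectin, 107.3 on collagen I, 70.3 on collagen IV, 68.3 on collagen IV with T cells, 59.7 on fibronectin with T cells and 66.8 on uncoated with T cells. For Jun these were, in values per M, 141.8 on fibronectin with T cells and 126.2 on uncoated with T cells. The last was Fosl1 in 4T1 alone on uncoated polystyrene, where experiment 5 was lowest at 107.9 per M and the next library was at 137.9. Causes were not tested.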

How the results depend on the processing

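Over 4376 values of 72 member results under the alternatives, 4346 kept their side of the threshold, 11 lost a call, 18 gained one and 1 reversed, and 335 uncalled values changed sign. With T cells added over all substrates the count of called members was 1 as reported, 2 with the replicate block, 2 by edgeR with the replicate block, 0 when scaled to epithelial markers, and 0 to 4 when libraries or experiments were left out. Under epithelial scaling Fosl2 reversed, to 0.0889, below the median of 0.20 over all genes under that scaling. The count fell to 0 without any 1 of 7 libraries: in 4T1 alone those of experiment 4 on collagen I, collagen IV and vitronectin, and with T cells those of experiment 4 on collagen I and vitronectin and of experiment 5 on fibronectin and vitronectin. Coats against uncoated in 4T1 alone gave 0 members as reported, 1 with the replicate block, 1 by edgeR with it, 1 under epithelial scaling (Fosl1, 0.54), 2 when 4T1 alone was fitted by itself with the block (Fosl1 and Jun), and 0 to 1 on leaving out. Epithelial scaling also raised the median collagen I difference of all tested genes in 4T1 alone, from 0.01 to 0.16. With T cells the coats gave 0, and 0 to 1 on leaving out. The F test over substrates gave 0 in 4T1 alone as reported, 1 with the replicate block, 1 by edgeR with it, 1 under epithelial scaling, 3 in 4T1 alone fitted by itself with the block, and 0 to 1 on leaving out. With T cells it gave 0 as reported, 1 with the replicate block, 1 by edgeR with it, 1 under epithelial scaling, 1 in the co-cultures fitted by themselves with the block, and 0 to 1 on leaving out. Where no share of all genes is printed for an alternative, its count does not set the members apart. The causes were not tested. Of all genes with T cells added, 1922 were called higher and 1788 lower as deposited, 1504 and 3076 after quantile normalisation, 2088 and 1308 with median-of-ratios size factors, and 2534 and 1416 by edgeR. The number of libraries, 3 to 5 per group, limits the precision.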

Other observations

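Genes outside the lists also stood apart in experiment 2, and are named here after their values were seen. Hes1, a Notch target, ranked 5 of all tested genes with medians of 109.1 per M in experiment 2 and 20.2 elsewhere. The chemokine Cxcl1 ranked 12, with 47.2 and 12.02 per M, and the linker histone gene Hist1h1c ranked 14, with 22.1 and 5.12 per M. In all 3 genes the 10 libraries of experiment 2 lay above the other 30.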
